A study of Mus musculus with 8 samples.

Results

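The genes described here encode the ligands of transforming growth factor beta (TGF-β) and the receptors that bind them, as transcribed by mouse cardiac fibroblasts. They were taken by symbol from the deposited gene count table and number 9 of its 56748 genes: Tgfb1, Tgfb2, Tgfb3, Tgfbr1, Tgfbr2, Tgfbr3, Acvrl1, Acvr1 and Eng. All 9 passed the filter on low counts and were among the 13960 genes tested. Expression was measured in 4 libraries of cells given TGF-β at 10 ng/mL for 48 h (the TGF-β1 cultures) and in 4 libraries of untreated cells. All were primary wild-type fibroblasts from whole hearts of C57BL/6J mice aged 1 day, kept by their attachment after a short plating step and grown with fetal bovine serum. Per the series design the replicates came from different litters, and the agent was recombinant TGF-β1, a protein, so the added ligand itself gives no reads. The labels' treatment protocol also names the compound Mirin, and no library is labelled as having received it.

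TGF-β is secreted as a latent complex that has to be released before it can bind. The released dimer is held by the type II receptor, encoded by Tgfbr2, which recruits and phosphorylates a type I receptor, usually the one encoded by Tgfbr1 (ALK5), and this in turn phosphorylates SMAD2 and SMAD3. Acvrl1 (ALK1) and Acvr1 (ALK2) encode type I receptors known mainly for bone morphogenetic protein (BMP) signals through SMAD1 and SMAD5, and the co-receptors betaglycan (Tgfbr3) and endoglin (Eng) present ligands to these complexes. In the heart the pathway is known for turning fibroblasts into matrix-producing myofibroblasts.

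Libraries held 14340740 to 17176898 counted reads, and each of the 9 genes had between 219 and 8482 counts in every library. Values are given as CPM, the count scaled to a common library size after TMM normalisation, or, where levels of different genes are compared, as the authors' FPKM, which also divides by gene length. All 12 markers on a fibroblast list were detected and tested, with a summed level of 26490 to 27950 CPM in TGF-β1 libraries and 22870 to 24690 CPM in untreated ones, though 8 of them fell and 3 rose. Cardiomyocyte markers were present as well, with a summed level of 858 to 928.9 CPM in TGF-β1 libraries against 1195 to 1280 CPM in untreated ones, and 10 of 12 of them fell. Whether their fall has a part in the changes below was not tested. Of 10 mural cell markers 7 were tested, of which 4 rose and 2 fell. Their summed level was 1528 to 1672 CPM in TGF-β1 libraries against 1294 to 1331 CPM in untreated ones. Most of it was Pdgfrb, at a mean of 1120 and 1010 CPM in the same groups. Of 10 epicardial and mesothelial markers 2 rose and 3 fell. Their summed level was 1034 to 1069 CPM in TGF-β1 libraries against 1254 to 1310 CPM in untreated ones. The part of these differences in the changes below was not tested either. Beside these counts, 17.6% of all genes tested rose and 18.5% fell. In untreated replicate 1, ribosomal RNA genes took 0.0322% of the counts, against 1.05% to 2.47% in the TGF-β1 libraries and 2.05% to 2.40% in the other untreated ones. Reads come from whole cultures, so fewer cells of a type and less RNA per cell cannot be told apart.

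After TGF-β1, Tgfb1, Tgfb3 and the type I receptor gene Acvr1 rose, and the type I receptor genes Acvrl1 and Tgfbr1 and the co-receptor gene Tgfbr3 fell. Tgfb2, Tgfbr2 and Eng did not pass the test. Thus 6 of 9 genes were called, 3 in each direction, at an adjusted p under 0.05 (edgeR quasi-likelihood test, Benjamini-Hochberg adjustment over all genes tested). The background is wide in this comparison, since 36.0% of all genes tested were called, 17.6% as higher and 18.5% as lower. Scaled by library totals instead of TMM, the calls over all genes were 1301 higher and 3673 lower, against 2451 higher and 2579 lower. The changes of the 9 genes were small, with a median size of 0.21 on the log2 scale, against 0.16 over all genes tested. For 6 of the 9 genes no treated library overlapped an untreated one in CPM, as was the case for 33.9% of all genes tested.

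**Figure D1:**
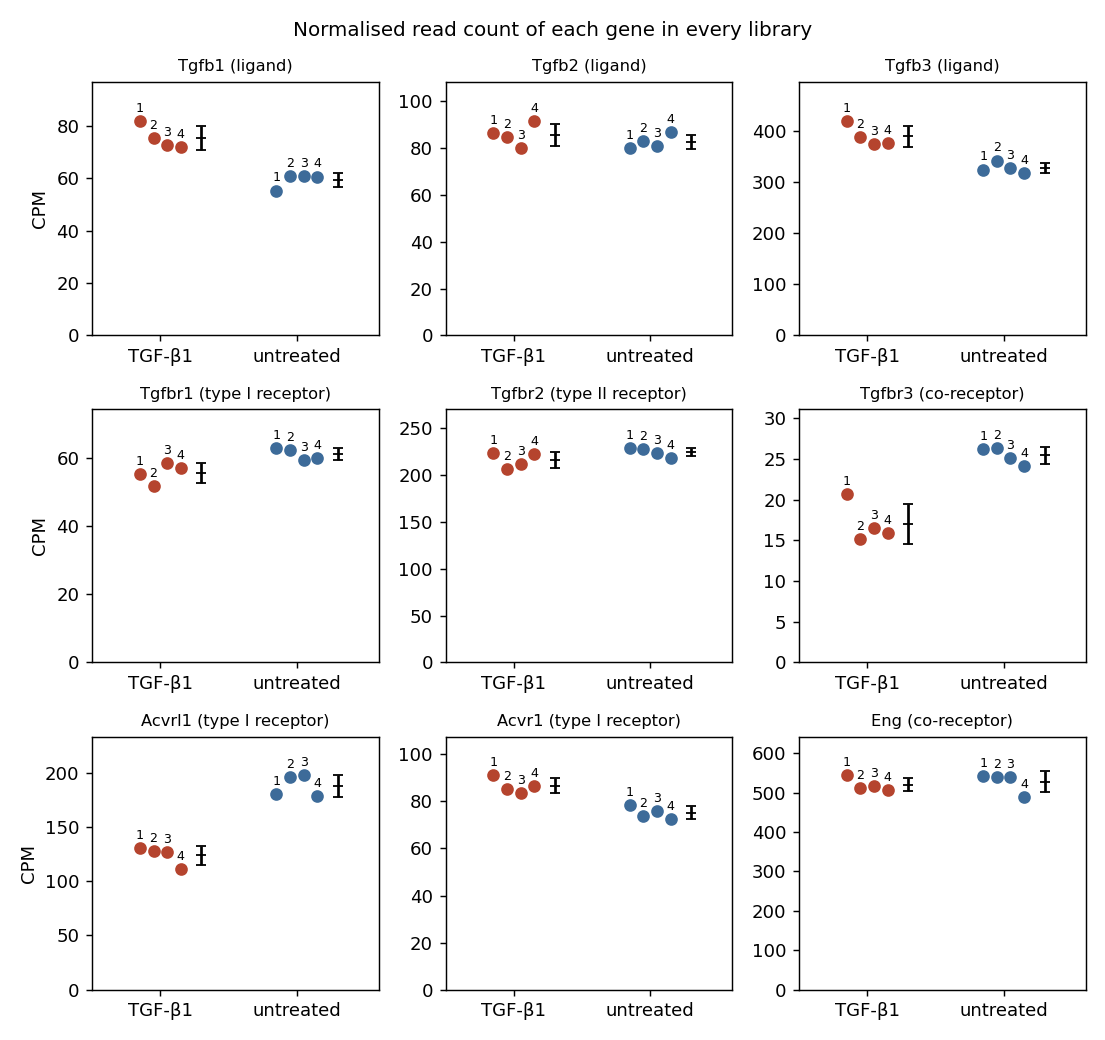
Normalised read count (CPM, linear axis from 0) of each of the 9 genes in the 4 TGF-β1 and 4 untreated libraries, numbered by replicate, with the mean and SD beside the points. The groups do not overlap for Tgfb1, Tgfb3, Acvr1, Acvrl1, Tgfbr3 and Tgfbr1, and overlap for Tgfb2, Tgfbr2 and Eng.

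Start regions are shown for 3 genes with different calls, namely Tgfb1 and Acvr1, which rose, and Tgfb2, which was not called. The windows of Tgfbr1, which fell, are described after them. They are RefSeq windows of 300 bases (build GRCm38.p6), from 250 bases before to 50 bases after the annotated start, written 5′ to 3′ on the gene's strand. Capitals mark matches to CAGAC (the core of SMAD-binding sites), TGANTCA (the AP-1 site), GGGCGG (the GC box bound by SP1) or TATAAA (the TATA box), each searched on both strands with overlapping matches counted.
Tgfb1, chr7:25686752-25687051, plus strand: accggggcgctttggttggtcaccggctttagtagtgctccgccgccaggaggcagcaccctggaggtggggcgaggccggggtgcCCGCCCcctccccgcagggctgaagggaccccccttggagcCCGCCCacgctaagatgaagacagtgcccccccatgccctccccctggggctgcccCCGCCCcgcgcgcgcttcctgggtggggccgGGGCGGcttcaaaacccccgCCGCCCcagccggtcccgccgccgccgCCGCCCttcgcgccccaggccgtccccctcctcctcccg
Acvr1, chr2:58566779-58567078, minus strand: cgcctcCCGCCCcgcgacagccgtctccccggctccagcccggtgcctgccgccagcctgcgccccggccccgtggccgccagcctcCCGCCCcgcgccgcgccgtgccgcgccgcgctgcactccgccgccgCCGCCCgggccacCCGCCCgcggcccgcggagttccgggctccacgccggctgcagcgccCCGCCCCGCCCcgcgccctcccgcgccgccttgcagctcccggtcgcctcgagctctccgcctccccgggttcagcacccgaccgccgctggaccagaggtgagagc
Tgfb2, chr1:186705940-186706239, minus strand: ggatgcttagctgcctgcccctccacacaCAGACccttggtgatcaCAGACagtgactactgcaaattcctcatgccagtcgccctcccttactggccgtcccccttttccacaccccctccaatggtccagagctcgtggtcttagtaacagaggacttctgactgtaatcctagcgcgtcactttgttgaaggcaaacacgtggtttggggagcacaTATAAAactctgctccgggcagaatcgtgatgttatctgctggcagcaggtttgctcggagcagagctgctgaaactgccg
The Tgfb1 and Acvr1 windows each held 6 GC boxes and no match to the other motifs, and 77.0% and 83.7% of their bases were G or C. The Tgfb2 window held no GC box but a TATA box whose first base lies at position -31 from the start and 2 copies of CAGAC at -221 and -204, with 54.3% G or C. The median over all 32841 such windows was 52.7% G or C, and 35.7% of them held a GC box, 49.6% CAGAC, 13.6% a TATA box and 7.81% an AP-1 site. Among the other genes with an entry, Eng and Tgfbr2 were not called. The Eng window held 2 copies of CAGAC and 63.3% G or C, and the Tgfbr2 window 1 copy and 59.0%. Tgfbr1, which was called lower, had 2 windows. The first held 2 GC boxes, against 6 each in Tgfb1 and Acvr1, and 74.7% G or C, near the 77.0% of Tgfb1. The other held 1 copy of CAGAC and 52.0%. A link between these windows and the calls was not tested. Windows were found for 6 of the 9 genes, and Tgfb3, Tgfbr3 and Acvrl1 had none. These are matches of letters and show no binding.

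Tgfb1 encodes the same ligand that was added to the cultures (ENSMUSG00000002603, GRCm39 chromosome 7, 25386427 to 25404502, plus strand). It was at 81.9, 75.5, 72.6 and 72.0 CPM in the TGF-β1 libraries, against 55.3, 60.8, 60.9 and 60.7 CPM in the untreated ones. Every treated library lay above every untreated one, the highest being TGF-β1 replicate 1 and the lowest untreated replicate 1. Tgfb1 thus rose 1.27-fold, by 0.34 ± 0.05 on the log2 scale (SE; edgeR adjusted p = 1.37e-05). The call was kept under all 19 alternative settings and left-out libraries, at log2 fold changes of 0.26 to 0.37. Macrophages are a known source of this ligand. The summed level of 12 macrophage markers was 172.7 to 210.8 CPM in TGF-β1 libraries and 190.8 to 233.1 CPM in untreated ones. Most of it was Lyz2, at a mean of 149 CPM in TGF-β1 and 169 CPM in untreated libraries. Of 11 tested, 1 rose (Adgre1) and 2 fell (Lyz2 and Mrc1). The part of macrophages in the rise of Tgfb1 was not tested.

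Tgfb3 was the ligand with the highest level per length (ENSMUSG00000021253, chromosome 12, 86103519 to 86125815, minus strand). It encodes the isoform best known for its part in palate fusion. Its level was 419.3, 387.6, 374.8 and 375.3 CPM in TGF-β1 libraries and 324.3, 341.9, 326.4 and 318.3 CPM in untreated ones. The groups were again separate, and TGF-β1 replicate 1 was again the highest. Tgfb3 rose 1.19-fold, or by 0.25 ± 0.04 in log2 units (SE), at an edgeR adjusted p of 3.46e-05. All 19 alternatives kept the call, at log2 fold changes of 0.17 to 0.27, the smallest with library totals (edgeR adjusted p = 0.00176). In the GENCODE M39 annotation 13% of its exonic bases lie under exons of genes on the opposite strand, one of them Ttll5, which rose by 0.76 ± 0.08 (29.4 CPM in TGF-β1 and 17.4 CPM in untreated libraries). How strand was handled in counting is not stated by any source used here, and the part of these shared bases in the rise of Tgfb3 was not tested.

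Tgfb2 encodes the isoform that needs betaglycan for high-affinity binding (ENSMUSG00000039239, chromosome 1, 186354989 to 186438186, minus strand). It was at 86.4, 84.6, 79.9 and 91.6 CPM in TGF-β1 libraries and at 80.1, 83.0, 80.8 and 86.8 CPM in untreated ones. The groups overlapped. Its log2 fold change of 0.05 ± 0.05 (SE) had an edgeR adjusted p of 0.439, with an approximate 95% interval of -0.04 to 0.14, and with library totals it was -0.029 (adjusted p = 0.69, within a range of 0.215 to 0.821 over the alternatives).

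Set against each other per length, Tgfb3 stood far above Tgfb1 and Tgfb2 in every library. Tgfb3 had 113.2 ± 6.23 FPKM in TGF-β1 libraries and 95.3 ± 2.87 FPKM in untreated ones (SD, n = 4 each). Tgfb1 had 14.7 ± 0.91 FPKM in TGF-β1 libraries and 11.6 ± 0.53 FPKM in untreated ones. Tgfb2 had 14.6 ± 0.82 and 14.0 ± 0.54 FPKM in TGF-β1 and untreated libraries. In untreated libraries every Tgfb2 value was above every Tgfb1 value, and in TGF-β1 libraries the values of these genes overlapped. The summed FPKM of the ligands was 142.5 ± 7.25 in TGF-β1 libraries and 120.9 ± 3.04 in untreated ones, a difference of 17.8%, given here as a description. The FPKM carry a scaling close to TMM. With library totals Tgfb1 and Tgfb3 rose by 0.26 and 0.17 on the log2 scale, against 0.34 and 0.25 with TMM.

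Shares of the ligands within a library do not depend on how libraries are scaled, but they do depend on the gene lengths used. Of the summed ligand FPKM, Tgfb1 made up 10.3% ± 0.15 in TGF-β1 libraries and 9.58% ± 0.39 in untreated ones (SD, n = 4 each), a difference of 0.75 percentage points. Tgfb2 made up 10.2% ± 0.70 in TGF-β1 libraries and 11.6% ± 0.51 in untreated ones, a difference of -1.39 percentage points. A share also falls when the other ligands rise, and the level of Tgfb2 itself did not pass the test. The Tgfb1 and Tgfb2 shares were each separate between groups, at an exact two-sided permutation p of 0.0286, the smallest that 70 assignments allow. Their adjusted p was 0.04 over the 7 shares and ratios compared. The Tgfb3 share was 79.4% ± 0.55 in TGF-β1 libraries and 78.8% ± 0.79 in untreated ones, which overlapped (exact permutation p = 0.229, adjusted p = 0.229). Rescaled to the exonic bases of GENCODE M39, Tgfb3 made up 72.3% in TGF-β1 and 71.6% in untreated libraries. In the same groups Tgfb1 then made up 14.4% and 13.3%, and Tgfb2 13.3% and 15.1%. With single libraries left out, the difference stayed between 0.59 and 0.87 percentage points for Tgfb1 and between -1.72 and -1.14 for Tgfb2, with adjusted p of 0.04 to 0.08 for both. The Tgfb1 call was kept only without TGF-β1 replicate 4, and the Tgfb2 call only without TGF-β1 replicate 3 or 4. The groups stayed separate in both shares whichever library was left out.

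Acvrl1, whose ALK1 product binds BMP9 and BMP10 with high affinity and is known best from endothelium, was the most lowered of the 9 genes (ENSMUSG00000000530, chromosome 15, 101026403 to 101043217, plus strand). It was at 130.3, 127.5, 127.3 and 111.1 CPM in TGF-β1 libraries and at 180.2, 195.8, 197.6 and 178.2 CPM in untreated ones. The groups were far apart, with TGF-β1 replicate 4 the lowest of all. Acvrl1 was 1.52-fold lower after TGF-β1, at a log2 fold change of -0.60 ± 0.05 (SE) and an edgeR adjusted p of 1.9e-09, and the change ran from -0.68 to -0.55 over the 19 alternatives. It had 28.6 ± 2.05 FPKM in TGF-β1 libraries and 43.3 ± 2.27 FPKM in untreated ones (SD, n = 4 each), and its rank among the 9 genes depended on the gene length used, as given with the levels below.

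The level of endothelial markers overlapped between the groups. Summed over 12 genes it was 116.2 to 123.2 CPM in TGF-β1 libraries and 116.6 to 120.2 CPM in untreated ones. The largest parts were Flt1, at a mean of 34.4 and 30.1 CPM in TGF-β1 and untreated libraries, and Tek, at 26.8 and 31.3 CPM. Of the 11 tested, 3 rose (Pecam1, Cdh5 and Flt1) and 2 fell (Tek and Egfl7). The highest of them per length, the angiopoietin receptor gene Tek, had 5.60 ± 0.53 FPKM in TGF-β1 libraries and 6.53 ± 0.35 FPKM in untreated ones, and Cdh5, the endothelial cadherin gene, had 3.26 ± 0.15 FPKM and 2.64 ± 0.20 FPKM in TGF-β1 and untreated libraries (SD, n = 4 each). None of the 12 markers was at 0 in all libraries, and the tight junction gene Cldn5, at 0.14 FPKM in TGF-β1 and 0.13 FPKM in untreated libraries, did not pass the count filter. The part of endothelial cells in the fall of Acvrl1 was not tested.

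Acvr1, the gene of the BMP and activin receptor ALK2, moved the other way (ENSMUSG00000026836, chromosome 2, 58278656 to 58457169, minus strand). It was at 91.1, 85.3, 83.7 and 86.7 CPM in TGF-β1 libraries, against 78.6, 73.7, 76.0 and 72.5 CPM in untreated ones. The groups did not overlap. Acvr1 rose 1.15-fold, by 0.21 ± 0.04 on the log2 scale (SE; edgeR adjusted p = 0.000846), and the call was kept in all 19 alternatives. The smallest change was 0.13 with library totals, where the edgeR adjusted p was 0.0421, close to the threshold.

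Tgfbr1, which encodes the main type I receptor of TGF-β, changed little (ENSMUSG00000007613, chromosome 4, 47353222 to 47414931, plus strand). It was at 55.4, 51.8, 58.8 and 57.2 CPM in TGF-β1 libraries and at 63.0, 62.5, 59.6 and 60.0 CPM in untreated ones. The highest treated and the lowest untreated library were close, and no values crossed. On the log2 scale it fell by 0.13 ± 0.05 (SE), at an edgeR adjusted p of 0.0437. The call was lost in 11 of 19 alternatives, among them DESeq2 (adjusted p = 0.0894), no count filter (adjusted p = 0.0839) and leaving out any of untreated replicates 1, 2 and 4 or TGF-β1 replicates 1 and 2, and the adjusted p ran from 0.00277 to 0.141.

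Tgfbr2, the gene of the type II receptor that all TGF-β isoforms use, did not pass the test (ENSMUSG00000032440, chromosome 9, 115913361 to 116004428, minus strand). It was at 223.6, 207.0, 211.7 and 222.7 CPM in TGF-β1 libraries and at 229.0, 227.6, 224.0 and 218.4 CPM in untreated ones. The groups overlapped through the lowest untreated library. Its log2 fold change of -0.06 ± 0.04 (SE) had an edgeR adjusted p of 0.28, with an approximate 95% interval of -0.13 to 0.02. With library totals it was called at -0.14 (edgeR adjusted p = 0.00979), and over all alternatives the adjusted p ran from 0.00979 to 0.565.

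**Figure D2:**
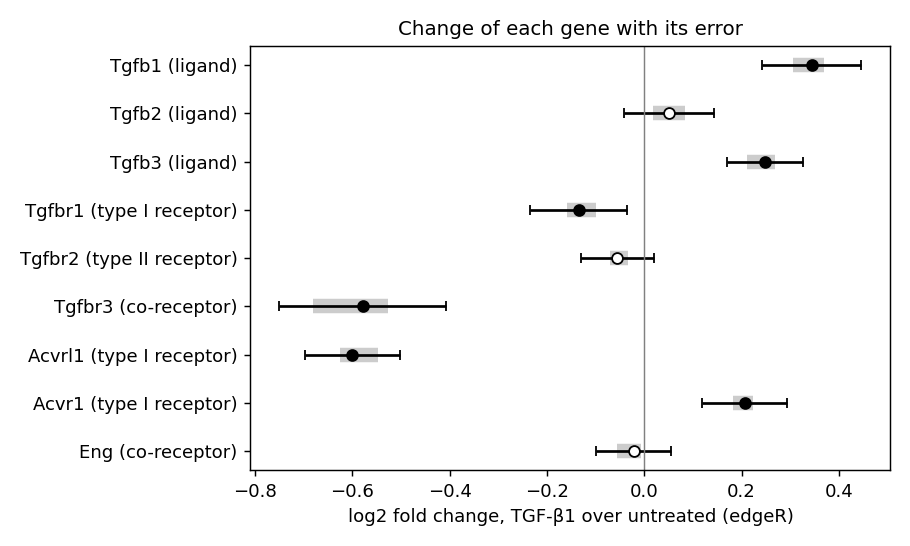
Log2 fold change of each gene, TGF-β1 over untreated libraries (edgeR), with bars of 1.96 SE to each side, and grey bands from the lowest to the highest value when each of the 8 libraries was left out in turn. Filled points passed an adjusted p of 0.05, and the bars of Tgfb2, Tgfbr2 and Eng cross 0.

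Of the co-receptor genes only Tgfbr3 was called. Tgfbr3, encoding betaglycan (ENSMUSG00000029287, chromosome 5, 107254436 to 107437495, minus strand), was at 20.7, 15.1, 16.5 and 15.9 CPM in TGF-β1 libraries and at 26.2, 26.3, 25.1 and 24.2 CPM in untreated ones. The groups did not overlap, and TGF-β1 replicate 1 stood above the other treated libraries. Tgfbr3 was 1.49-fold lower after TGF-β1, at a log2 fold change of -0.58 ± 0.09 (SE) and an edgeR adjusted p of 1.37e-05. This was the rarest of the 9 transcripts, with 219 to 405 counts a library, and its coefficient of variation among treated libraries was 14.5%, the largest of the 9 genes. Without TGF-β1 replicate 1 or any other single library it stayed between -0.68 and -0.53.

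Eng, encoding endoglin, had the highest FPKM of the 9 genes (ENSMUSG00000026814, chromosome 2, 32536607 to 32572681, plus strand). It was at 544.0, 512.1, 517.0 and 505.9 CPM in TGF-β1 libraries and at 542.7, 539.2, 540.5 and 488.3 CPM in untreated ones. The values of the groups were interleaved, with untreated replicate 4 the lowest. Its log2 fold change of -0.02 ± 0.04 (SE) had an edgeR adjusted p of 0.716 and an approximate 95% interval of -0.10 to 0.06. With library totals it was -0.103 (edgeR adjusted p = 0.0517), and over all alternatives the adjusted p ran from 0.0517 to 0.913. In GENCODE M39 11% of its exonic bases lie under exons of Fpgs on the opposite strand, and Fpgs was not called (0.02 ± 0.06, edgeR adjusted p = 0.84).

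The levels per length spanned a wide range. In FPKM, which use the deposited gene lengths, Eng was at the top with 126.3 ± 4.22 FPKM in TGF-β1 libraries and 128.2 ± 6.15 FPKM in untreated ones, and Tgfbr3 at the bottom with 2.56 ± 0.37 FPKM in TGF-β1 libraries and 3.82 ± 0.15 FPKM in untreated ones (SD, n = 4 each). In untreated libraries the order by FPKM was Eng, Tgfb3, Acvrl1, Tgfbr2, Acvr1, Tgfb2, Tgfb1, Tgfbr1 and Tgfbr3, and no neighbours overlapped. In TGF-β1 libraries Tgfb1 stood above Tgfb2, and the neighbours Acvrl1 and Tgfbr2 overlapped, as did Tgfb1 and Tgfb2. Tgfbr2 had 26.0 ± 0.98 FPKM in TGF-β1 libraries and 27.0 ± 0.54 FPKM in untreated ones, Acvr1 had 17.7 ± 0.66 and 15.3 ± 0.53 FPKM, and Tgfbr1 had 8.40 ± 0.44 and 9.22 ± 0.26 FPKM in the same groups.

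Part of this order rests on the lengths. The deposited length is 4265 bases for Acvrl1, 4048 for Eng, 3383 for Tgfb3 and 4829 for Acvr1, while all exons of these genes in GENCODE M39 cover 7555, 7798, 5213 and 6684 bases. Rescaled to these exonic bases, a setting chosen after seeing the data, Acvrl1 had 16.2 ± 1.16 in TGF-β1 libraries and 24.5 ± 1.28 in untreated ones, below Tgfbr2 at 24.2 ± 0.91 and 25.1 ± 0.50 in the same groups (SD, n = 4 each), and the untreated values of Acvrl1 and Tgfbr2 overlapped. Acvr1 then came below Tgfb1 and Tgfb2 in both groups by its mean. Tgfb3 stood above Eng in TGF-β1 libraries, at 73.5 ± 4.04 against 65.6 ± 2.19, and overlapped it in untreated ones. Tgfbr1 and Tgfbr3 kept the lowest places in both groups. Fold changes of a single gene do not depend on its length.

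**Figure D3:**
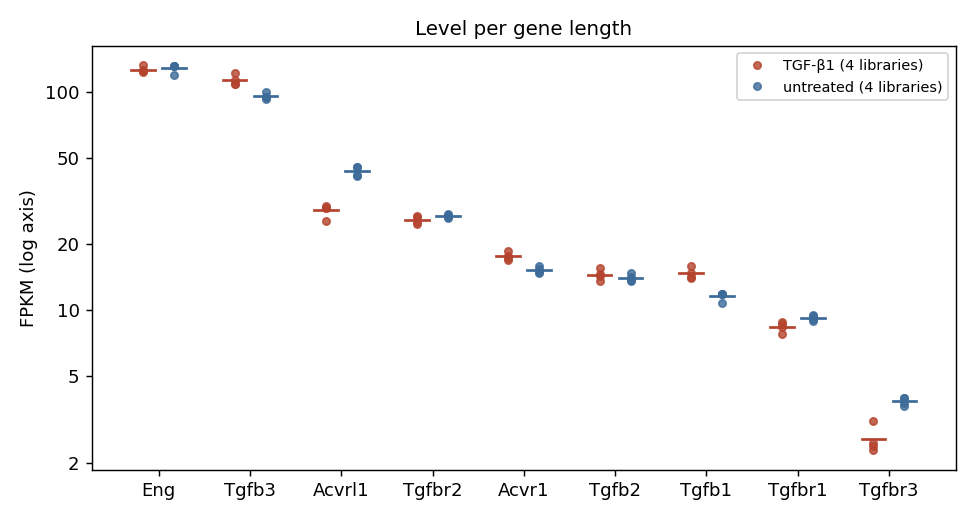
FPKM on a log axis for the 9 genes in TGF-β1 libraries (left in each pair) and untreated libraries (right), with a line at each group's mean, ordered by the untreated mean. On these deposited lengths Acvrl1 overlaps Tgfbr2 in TGF-β1 libraries and lies above it in untreated ones, and with the exonic bases of GENCODE M39 its mean lies below Tgfbr2 in both groups.

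Ratios of receptor genes within a library showed how the make-up of the receptor transcripts differed. For Acvrl1 over Tgfbr1, the log2 ratio of FPKM was 1.85, 1.92, 1.73 and 1.57 in TGF-β1 libraries and 2.13, 2.26, 2.35 and 2.19 in untreated ones, a difference of -0.46. The ratio itself was 3.40 after TGF-β1 and 4.70 without it by FPKM, and 1.95 and 2.69 with the exonic bases of GENCODE M39. For Acvr1 over Tgfbr1 the log2 ratio was 1.16, 1.16, 0.95 and 1.04 in TGF-β1 libraries and 0.76, 0.67, 0.79 and 0.71 in untreated ones, a difference of 0.34. For Eng over Tgfbr3 it was 5.41, 5.77, 5.67 and 5.68 in TGF-β1 libraries and 5.06, 5.05, 5.12 and 5.03 in untreated ones, a difference of 0.57. Only Tgfbr3 of these genes was called. The ratio itself was 49.6 in TGF-β1 libraries and 33.5 in untreated ones by FPKM, and 26.9 and 18.2 with the exonic bases, while the log2 differences are the same with either length. These groups did not overlap, and each had an exact two-sided permutation p of 0.0286 and an adjusted p of 0.04 over the 7 shares and ratios. Without TGF-β1 replicate 3 or 4 the adjusted p stayed at 0.04. Without any other library it was 0.05 for these 3 ratios and the calls were lost. In all these fits the groups stayed separate, and the unadjusted exact permutation p of each ratio stayed at 0.0286. The lost calls came from the adjustment over the 7 shares and ratios.

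The ratio of the receptors that form the TGF-β signalling complex moved less. For Tgfbr1 over Tgfbr2 the log2 ratio was -1.69, -1.67, -1.52 and -1.64 in TGF-β1 libraries and -1.54, -1.54, -1.59 and -1.54 in untreated ones. The groups overlapped, with TGF-β1 replicate 3 the highest of all, and the difference of -0.08 had an exact permutation p of 0.143 (adjusted p = 0.167). Without TGF-β1 replicate 3 the difference was -0.12 and the groups were separate (exact permutation p = 0.0286, adjusted p = 0.04).

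**Figure D4:**
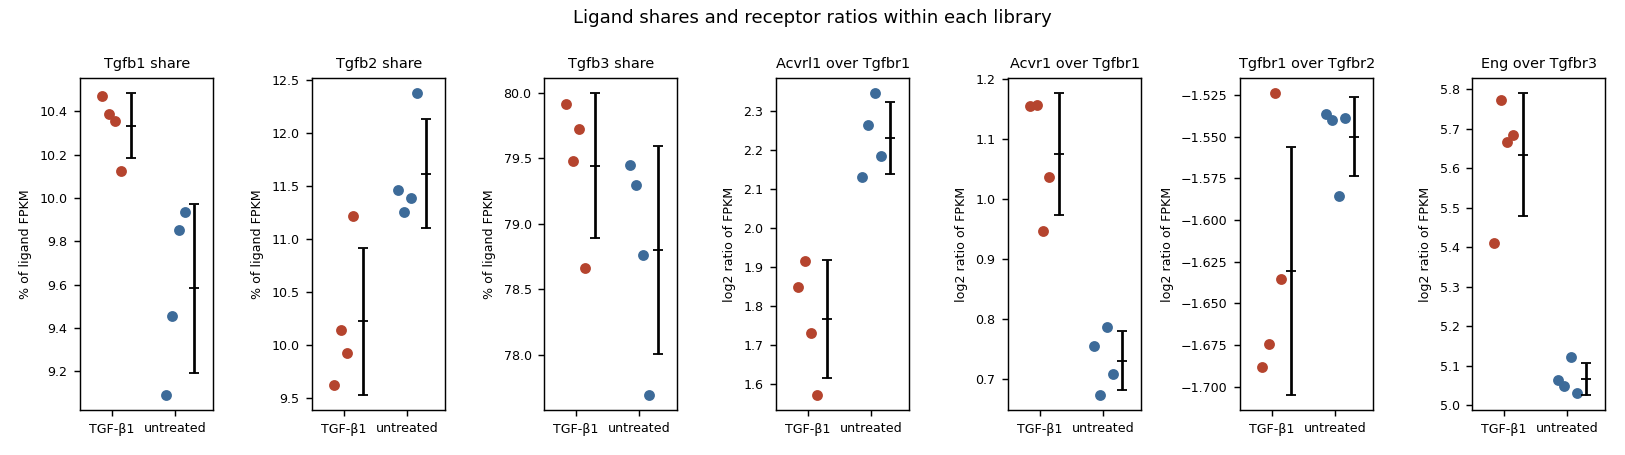
Share of each ligand in the summed ligand FPKM (percent) and log2 ratios of receptor FPKM in the 4 TGF-β1 and 4 untreated libraries, with the mean and SD, on axes that do not start at 0. The groups are separate for the Tgfb1 and Tgfb2 shares and for the ratios of Acvrl1 over Tgfbr1, Acvr1 over Tgfbr1 and Eng over Tgfbr3.

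Across the 8 libraries, genes with a pattern among the most like that of Tgfb1, the most raised of the 9, were Hdlbp and Tubb3, with Pearson correlations of log2 CPM of 0.989 and 0.988. The neuronal tubulin gene Tubb3 had 172.9 ± 11.2 CPM in TGF-β1 libraries and 114.2 ± 9.79 CPM in untreated ones (SD, n = 4 each). Most like Acvrl1, the most lowered, were Mmp17, Cd248 and Smim1, at 0.997, 0.994 and 0.993. Cd248, which encodes the stromal surface protein endosialin, had 74.2 ± 6.23 CPM in TGF-β1 libraries and 109.5 ± 5.70 CPM in untreated ones, and the membrane-anchored protease gene Mmp17 had 7.99 ± 0.89 CPM and 18.7 ± 1.93 CPM in TGF-β1 and untreated libraries. Libraries of both groups enter these correlations, so any gene that differs between them can score high, and of 10201 genes compared 624 were above 0.9 with Tgfb1 and 937 with Acvrl1.

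Other genes of the pathway were described by lists chosen with results of these data known. Of 62 genes on the lists, 57 were tested, and 30 rose and 11 fell, against 17.6% higher and 18.5% lower among all genes tested. With library totals 25 rose and 13 fell. Of 15 genes that hold or release latent TGF-β, 10 rose and 2 fell, with a median log2 fold change of 0.27 against 0.01 over all genes tested. The latent TGF-β binding protein genes Ltbp1 and Ltbp2 rose by 1.61 ± 0.05 and 2.19 ± 0.04. The integrin gene Itgb8, whose product activates latent TGF-β, fell by 0.50 ± 0.07, and Itgb3 fell by 0.20 ± 0.07 (SE, edgeR adjusted p = 0.0314), a call that was lost in 10 of 19 alternatives.

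Of 13 genes for SMADs and their partners, 3 rose and 3 fell, with a median of 0.04. The corepressor genes Skil and Tgif1 rose by 0.76 ± 0.05 and 0.58 ± 0.06, while Smad3, the receptor-activated SMAD of TGF-β, fell by 0.53 ± 0.05 and the inhibitory Smad6 by 0.42 ± 0.04. Of 11 antagonists and feedback genes 7 rose and 2 fell, with a median of 0.18, and with library totals 5 rose and 4 fell. Fstl3, which encodes an activin-binding protein, rose by 1.69 ± 0.05 and Pmepa1 by 0.80 ± 0.04, while Nedd4l, a ubiquitin ligase gene, fell by 0.69 ± 0.07 and Dcn, encoding the TGF-β binding proteoglycan decorin, by 0.39 ± 0.04.

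Of the 8 other type I and type II receptor genes of the superfamily, 2 rose and 1 fell, with a median of 0.01. The BMP type II receptor gene Bmpr2 rose by 0.43 ± 0.05, and the activin type I receptor gene Acvr1b fell by 0.46 ± 0.08. Bmpr1b rose by 0.77 ± 0.28 at only 2.44 CPM in TGF-β1 and 1.44 CPM in untreated libraries, and this call was lost in 10 of 18 alternatives. Of 7 genes for the ALK1 ligands and for ID and HEY targets, none rose and 3 fell, namely Id1, Id2 and Id3, which encode inhibitors of helix-loop-helix factors, with a median of -0.43 over the 6 tested. Id3 fell by 0.60 ± 0.04 and Id1 by 0.71 ± 0.05. The BMP10 gene Bmp10 was at 0.80 CPM in TGF-β1 and 0.98 CPM in untreated libraries, and Gdf2, which encodes BMP9, had 3 counts over all 8 libraries.

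All 11 genes on a list of SMAD3 targets rose, with a median of 0.62, and 10 of them rose with library totals. Ccn2, a matricellular protein gene, had the smallest p among them and rose by 1.00 ± 0.04. The median of the 9 ligand and receptor genes was -0.02. The lists share Skil, Pmepa1 and Smad7.

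**Figure D5:**
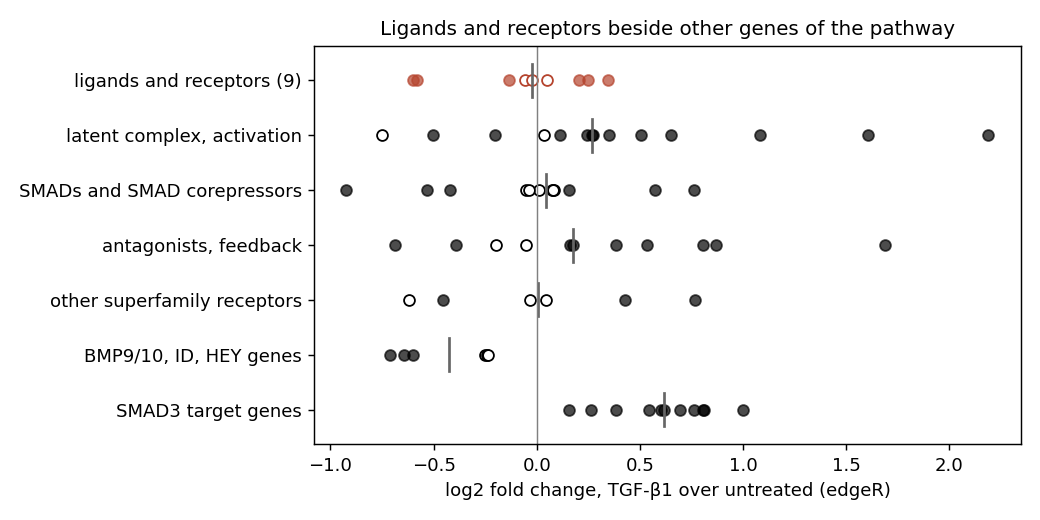
Log2 fold change (TGF-β1 over untreated, edgeR) of the 9 ligand and receptor genes (red) and of the tested genes on the other pathway lists (black), with filled points called at an adjusted p under 0.05 and a vertical line at each list's median. The 9 genes lie within -0.60 and 0.34, all 11 SMAD3 targets lie above 0, and Ltbp2 is farthest to the right.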

How the data were processed

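RNA was sequenced from 4 TGF-β1 and 4 untreated cultures. Per the labels' protocols, polyadenylated RNA was selected on oligo(dT) beads and copied with random hexamers. Tools named, per the submitters' processing notes, are HISAT2, featureCounts, Subread and CASAVA, with no version, and no source used here states the strand setting. The first deposited table holds raw whole-number read counts per gene. The second deposited table holds the authors' FPKM, which equal count over the deposited gene length times a constant per library to within a relative error of 6.74e-07, so ratios within a library carry no library scaling. The library size behind that constant was 1.014 to 1.02 times the TMM-scaled total and 0.971 to 1.068 times the plain total. Levels in FPKM are thus scaled much as with TMM. The processing notes name GRCm38 and the series design mm39. For 99.9% of 21630 coding genes the file's coordinates overlap the same gene in GENCODE M39, so they are read as GRCm39.

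Genes were filtered with filterByExpr (minimum count 10, minimum total 15), scaled with TMM and tested with edgeR 4.0.16 (limma 3.58.1, R 4.3.3), quasi-likelihood, two-sided, group as the only term, Benjamini-Hochberg over 13960 genes, called at adjusted p under 0.05. The test was first run on simulated data. SE is the size of the log2 fold change over the square root of F, and approximate 95% intervals are 1.96 SE to each side. Shares and ratios were tested by exact two-sided permutation of the 70 library assignments, adjusted over 7. The nearest genes had a mean of at least 5 CPM and an established symbol (prior count 2). Named genes are the 9, up to 2 called genes per direction and list with the smallest p, and the 3 nearest patterns to the most raised and the most lowered gene, and further marker and list genes were named after their values were seen. One of the nearest genes is not reported here. Members and lists were chosen with earlier results of these data known.

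Replicate libraries differed by 2.08 to 3.16 times sampling noise (median chi-square), so none was a duplicate. The labels do not say that a replicate number marks a shared litter, and deviations of same-numbered libraries correlated at -0.175 to 0.105, so numbers were not taken as pairs. Alternatives were scaling by library totals, RLE or upper quartile, no count filter and 50 counts in 4 libraries, DESeq2 1.42.0, limma on log2(FPKM + 1) and log2(FPKM + 0.1), the replicate block, removal of ribosomal RNA genes and Lars2, and each library left out. Levels, shares and ratios were also rescaled to all exonic bases of each gene in GENCODE M39, chosen after seeing the data.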

Additional observations from a re-analysis of the deposited data

Results flagged for a closer look

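In 32 groups of 4 values (the 9 genes and the 7 shares and ratios in each condition), 4 held a value far from the other 3 by Dixon's test, and chance alone flags about 1 in 20 groups. Tgfb1 was low in untreated replicate 1, at 55.3 CPM, while the other untreated libraries lay within 60.7 to 60.9 CPM. Without that library the log2 fold change of Tgfb1 was 0.31, against 0.34 with it. Acvrl1 was low in TGF-β1 replicate 4, at 111 CPM, while the other treated libraries lay within 127.3 to 130.3 CPM. Without it the log2 fold change of Acvrl1 was -0.55, against -0.60. Eng was low in untreated replicate 4, at 488 CPM against 539.2 to 542.7 CPM in the other untreated libraries. Without it the log2 fold change of Eng was -0.0567 (edgeR adjusted p = 0.303), against -0.0218 with it. The log2 ratio of Tgfbr1 over Tgfbr2 was low in untreated replicate 3, at -1.59 against -1.54 in each of the others.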

How the results depend on the processing

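Of 171 values of the 9 genes under 19 alternatives, 158 kept direction and side of the threshold, 11 lost a call (all Tgfbr1), 1 gained it (Tgfbr2 with library totals) and 1 reversed (Tgfb2 with library totals, -0.029, not called either way). Library totals shifted the median gene by -0.08 relative to TMM, gave 26.2% of calls as higher against 48.7% with TMM, and were the setting with most members called, 7. With no count filter, DESeq2, limma or the replicate block 5 members were called, and 5 or 6 with a library left out. Over all genes 3770 to 5040 were called, and 38 to 41 on the pathway lists. With the replicate block 4971 genes and 5 members were called, and no treated library correlated best with its own number. Sign flips within the replicate block cannot go below an exact p of 0.125, so the differences in the Tgfb1 share (0.752), Tgfb2 share (-1.39), Acvrl1 over Tgfbr1 (-0.464), Acvr1 over Tgfbr1 (0.343) and Eng over Tgfbr3 (0.566) were unchanged in size and not called (adjusted p = 0.146). With 1 library left out, differences were 0.588 to 0.869 for the Tgfb1 share, -1.72 to -1.14 for the Tgfb2 share, -0.513 to -0.399 for Acvrl1 over Tgfbr1, 0.315 to 0.385 for Acvr1 over Tgfbr1, 0.52 to 0.64 for Eng over Tgfbr3 and -0.116 to -0.0611 for Tgfbr1 over Tgfbr2. Of 40 such fits of the 5 called shares and ratios, 31 were not called, at adjusted p of 0.05 to 0.08. The groups stayed separate in all 40. For the receptor ratios among them the unadjusted exact permutation p stayed at its smallest possible value, and their calls were lost through the shared adjustment. Counts per gene length, FPKM + 0.1 and, chosen after seeing the data, exonic bases of GENCODE M39 in place of the deposited lengths changed no call. With exonic bases the share differences were 1.07 for Tgfb1 and -1.78 for Tgfb2 percentage points.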
